A study of Arabidopsis thaliana with 6 samples.

Results

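The TE genes of chromosome 1 are the annotated genes of Arabidopsis thaliana that belong to transposable elements (TEs) and lie on that chromosome. They were taken as all rows of the deposited TE gene table whose identifier begins with AT1G, which gave 682 of the 3901 TE genes of the table. RNA-seq of whole 7-day seedlings compared tsk-4, a mutant of the gene TONSOKU (TSK) in the Col ecotype, with wild-type Col, in 3 libraries per genotype. The labels do not say how many seedlings entered a library or whether the libraries came from separate sowings, and p-values therefore cover the spread among these 6 libraries alone, part of which can be technical. A single mutant allele was studied, and where it alters TSK is not stated. The mutated gene, TSK (AT3G18730), measured 0.903 ± 0.0657 TPM in tsk-4 and 3.62 ± 0.234 TPM in Col (SD, n = 3 each; limma adjusted p = 0.00097). Genes were tested with at least 1 TPM in 3 of 6 libraries, which TSK met through Col alone. With no filter its limma adjusted p was 0.0011.

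TEs are mobile sequences and their remnants. In Arabidopsis they crowd the heterochromatin around the centromeres, where DNA methylation, H3K9me2 and the histone variant H2A.W keep most of them from being read into RNA. TONSOKU is a nuclear protein that binds newly replicated chromatin and acts in the repair of damaged replication forks, and the series asked whether it is needed to keep repressive chromatin marks in place. In the reference annotation (TAIR10.1) all 682 members are entered as pseudogenes without a described protein product, and 11 carry a symbol or a note, 5 of them as members of Sadhu, a non-coding retrotransposon family of Arabidopsis. Their spans ran from 126 to 14623 bases, with a median of 2204 bases.

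The first 150 bases of 6 members show what kind of sequence the results turn on. They are read 5′ to 3′ along each gene's own strand from the TAIR10.1 genome of RefSeq, and capitals mark CG pairs, the sites at which the methyltransferase MET1 maintains methylation. The first 4 belong to members that were higher in tsk-4. They lie at chr1:15710136-15710285 (minus strand), chr1:13680444-13680593 (minus strand), chr1:13689534-13689683 (plus strand) and chr1:13847476-13847625 (minus strand). The last 2 belong to abundant members with lower values in tsk-4, at chr1:7065494-7065643 (plus strand) and chr1:30103750-30103899 (minus strand).
AT1G42050: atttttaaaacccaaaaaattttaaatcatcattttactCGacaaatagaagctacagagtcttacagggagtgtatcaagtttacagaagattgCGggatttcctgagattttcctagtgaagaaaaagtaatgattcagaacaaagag
AT1G36330: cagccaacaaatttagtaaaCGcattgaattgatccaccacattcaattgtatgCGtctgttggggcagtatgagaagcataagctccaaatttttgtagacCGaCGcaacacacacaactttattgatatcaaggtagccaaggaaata
AT1G36360: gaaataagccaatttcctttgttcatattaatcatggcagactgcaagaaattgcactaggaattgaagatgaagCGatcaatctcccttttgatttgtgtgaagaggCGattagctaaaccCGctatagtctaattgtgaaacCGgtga
AT1G36630: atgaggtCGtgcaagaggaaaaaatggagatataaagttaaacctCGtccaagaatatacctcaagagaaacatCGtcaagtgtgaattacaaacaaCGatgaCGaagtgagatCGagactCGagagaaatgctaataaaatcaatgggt
AT1G20390: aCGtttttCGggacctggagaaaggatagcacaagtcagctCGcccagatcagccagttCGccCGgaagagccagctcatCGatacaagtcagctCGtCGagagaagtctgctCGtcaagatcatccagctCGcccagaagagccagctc
AT1G80020: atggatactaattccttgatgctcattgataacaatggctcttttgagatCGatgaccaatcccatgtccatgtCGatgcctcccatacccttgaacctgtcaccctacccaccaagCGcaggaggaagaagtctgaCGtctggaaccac
The 6 stretches held 2, 4, 4, 7, 10 and 4 CG pairs in this order. Over the whole gene, the number of CG pairs relative to that expected from the base composition was 0.793 in AT1G42050, 0.444 in AT1G36330, 0.801 in AT1G36360 and 0.658 in AT1G36630, against a median of 0.634 over all 682 members. It was 1.22 in AT1G20390 and 0.364 in AT1G80020, so the abundant members lay on either side of that median.

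More TE genes of chromosome 1 were read in tsk-4 than in Col. A member was counted as detected where its TPM was above 0, which stands for at least 1 read. In tsk-4, 132, 140 and 132 members were detected per library, against 87, 79 and 81 in Col. The libraries of the 2 genotypes did not overlap, with 134.7 ± 4.62 detected members in tsk-4 and 82.3 ± 4.16 in Col (SD, n = 3 each; two-sided exact permutation p = 0.1, the smallest that 3 libraries against 3 allow). These are 19.7% and 12.1% of the 682 members. On chromosomes 2 to 5, 19.0 ± 0.681% of TE genes were detected in tsk-4 and 10.6 ± 0.217% in Col (SD, n = 3 each). Chromosome 1 held 18.03 ± 1.05% of all detected TE genes in tsk-4 and 19.4 ± 0.566% in Col, and these shares overlapped between the genotypes (two-sided exact permutation p = 0.3). The increase in tsk-4 was thus not shown to differ between chromosome 1 and the other chromosomes.

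Over all 6 libraries 260 members were detected at least once (38.1%) and 422 in none. Of the 260, tsk-4 alone gave reads for 126, Col alone for 42, and both genotypes for 92. Of the 260, 69 rested on 1 read over all libraries. The sets of members read in 1 genotype alone differed in how often the reads came back in more than 1 library of that genotype. In the tsk-4 set 75, 30 and 21 members were read in 1, 2 and 3 tsk-4 libraries. In the Col set 31, 11 and 0 members were read in 1, 2 and 3 Col libraries. The tsk-4 set held 687 reads, with 17 members of 10 or more reads, and the Col set 87 reads, with 0 such members and 6 reads at most. Across all TE genes of the table, 2.90% had reads in each of the 3 tsk-4 libraries but not in Col, and 0.0513% showed the opposite, so the 21 members of chromosome 1 (3.08%) were close to the share of the whole table.

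**Figure D1:**
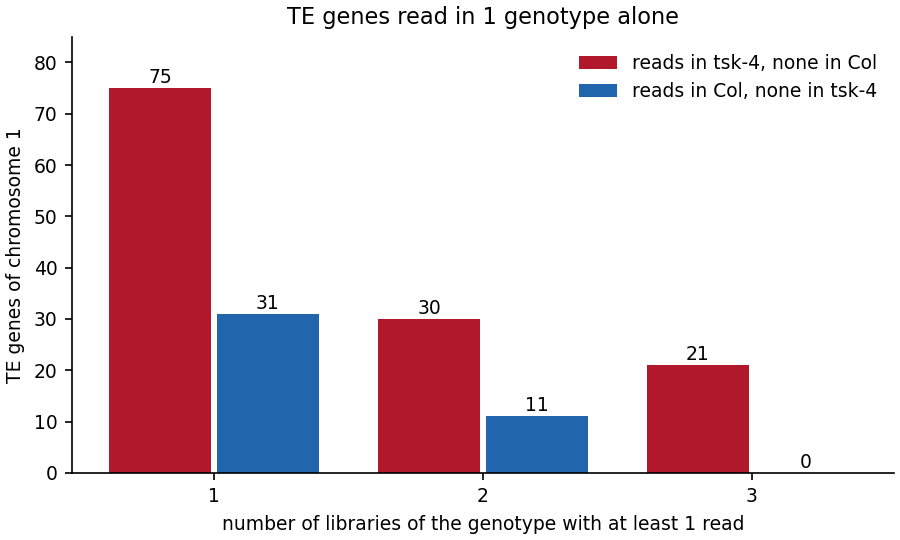
TE genes of chromosome 1 with reads in 1 genotype alone, by the number of its libraries that held at least 1 read (horizontal axis) and the number of TE genes (vertical axis). Red bars show tsk-4 alone (75, 30 and 21 TE genes) and blue bars Col alone (31, 11 and 0 TE genes).

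The members lay unevenly along the chromosome. TAIR10.1 gives chromosome 1 a length of 30427671 bases. Identifier numbers rise along it, and the 682 members followed that order by start coordinate with 12 breaks. In blocks of 5000 identifier numbers, AT1G35000 to AT1G39999 listed 214 members and AT1G40000 to AT1G44999 listed 231. The blocks at the ends of the chromosome listed few, with 2 members below AT1G05000 and 1 from AT1G80000 on. The 3 neighbouring blocks with the most rows, AT1G30000 to AT1G44999, are called the central block here and held 508 members (74.5%), spanning from 10531831 to 16985852. The remaining 174 members are called the arms.

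The central block, with 74.5% of the members, had a mean of 42.3 more detected members in tsk-4 than in Col, and the arms 10 more. Relative to the members listed, the gap was 8.33 percentage points in the central block and 5.75 in the arms. In the central block 81, 80 and 82 of 508 members were detected in the tsk-4 libraries, against 40, 37 and 39 in the Col libraries. In the arms 51, 60 and 50 of 174 members were detected in tsk-4, against 47, 42 and 42 in Col. The arms thus had the higher share of detected members in either genotype, 30.8 ± 3.17% in tsk-4 and 25.1 ± 1.66% in Col, where the central block had 15.9 ± 0.197% in tsk-4 and 7.61 ± 0.301% in Col (SD, n = 3 each). The central block made up 60.2 ± 2.68% of the detected members in tsk-4 and 47.0 ± 1.09% in Col, with no overlap between the libraries (two-sided exact permutation p = 0.1, the smallest possible). The widest gaps were in AT1G35000 to AT1G39999, with 36, 31 and 39 detected members in tsk-4 against 13, 13 and 11 in Col, and in AT1G40000 to AT1G44999, with 35, 36 and 33 in tsk-4 against 17, 15 and 19 in Col. AT1G45000 to AT1G49999, on the far side of the central block, had 13, 16 and 14 of 40 members detected in tsk-4 and 8, 8 and 9 in Col. AT1G30000 to AT1G34999 had 10, 13 and 10 of 63 in tsk-4 and 10, 9 and 9 in Col, so that the genotypes touched. From AT1G55000 to AT1G59999 an average of 5 of 14 members was detected in either genotype.

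**Figure D2:**
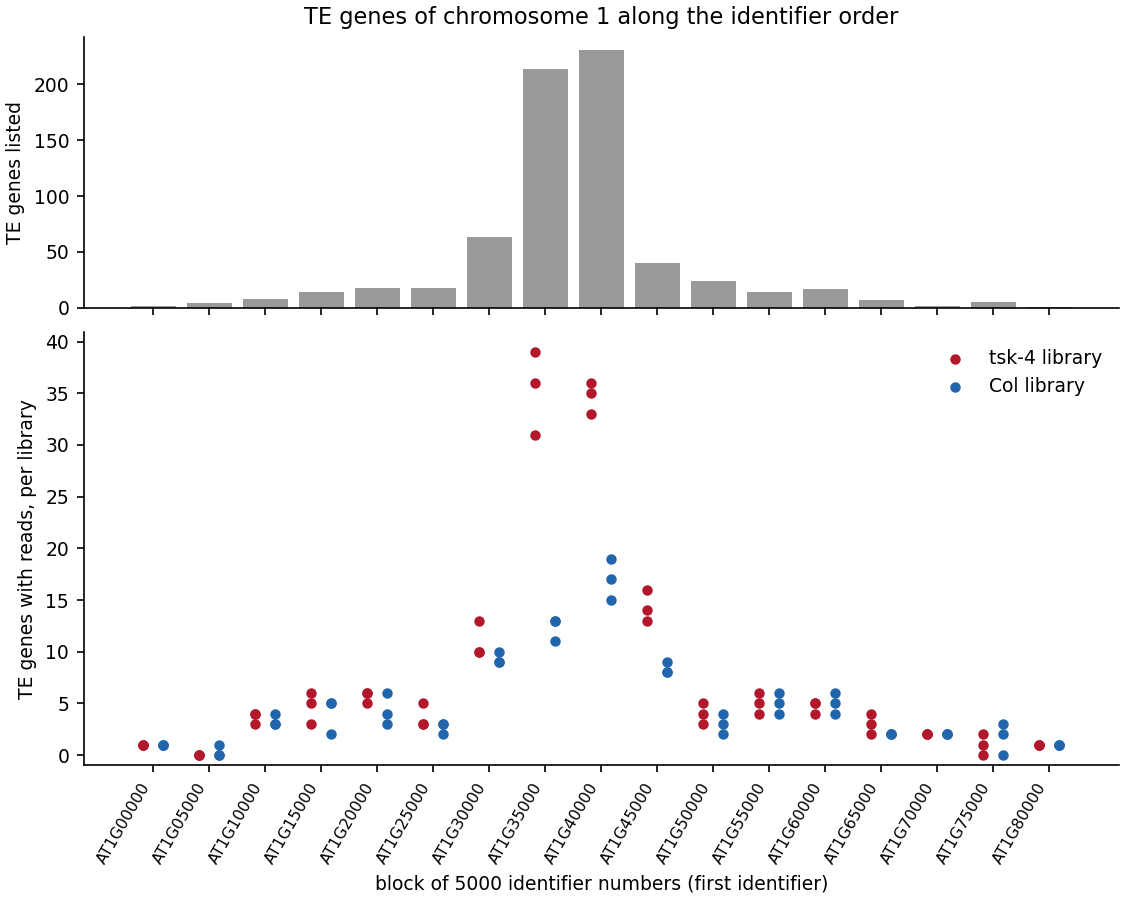
TE genes of chromosome 1 in blocks of 5000 identifier numbers, ordered along the chromosome. The upper panel gives the number of TE genes listed, and the lower panel the number with reads in each library (red, tsk-4; blue, Col). In AT1G35000 to AT1G39999 the tsk-4 libraries sat at 31 to 39 and the Col libraries at 11 to 13, while in most outer blocks the points of the genotypes overlapped.

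Members that were read differed in length from members that were not. The 422 members with no reads had a median span of 1836 bases, and the 38 with reads in all 6 libraries one of 2766 bases. The 21 members read in each tsk-4 library but not in Col had a median span of 2523 bases and a median GC content of 42.9%, against 41.3% over all members. Of the 422, 81.8% lay in the central block, as did 18 of the 21 (85.7%) and 14 of the 38 (36.8%). Much of this sequence is repeated: 217 of the 682 members (31.8%) held a stretch of at least 100 bases found elsewhere in the genome at 98% identity or more, as did 7 of the 21 and 5 of the 38. How reads that map to several places were treated is not given in the sources used here, so values of such members are uncertain. Among the 465 members with no such stretch, 103.7 ± 5.03 were detected in tsk-4 and 62.3 ± 2.08 in Col (SD, n = 3 each), a ratio of 1.66 against 1.64 over all members.

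In the test for level, 12 members were higher in tsk-4 and 5 lower. The values were TPM, reads per length scaled to a sum of 1000000 within the TE gene table. The fit was limma on log2(TPM + 100), its variance prior following the mean, over the 465 TE genes with a mean of at least 50 TPM, with calls made at an adjusted p under 0.05. A pseudocount of 100 TPM stands for about 1 read in 1 kb of this table. It holds down the log2 changes of sparse members, so log2 changes here are on that scale. Of the 682 members 88 passed the filter, 26 of them with no read in Col and 3 with none in tsk-4. Over all 465 TE genes 14.0% were called higher and 2.80% lower. The 12 members of chromosome 1 are 13.6% of the 88, near that background, and the 5 are 5.68%. The 3 libraries of tsk-4 all lay above those of Col for 23 of the 88 members (26.1%, against 25.2% of all TE genes tested) and all below for 13 (14.8%, against 8.17%). The median log2 change was 0.34 over the 88 members and 0.30 over the 465 TE genes. When each library was instead rescaled to the gene table, 13 members were called higher and 0 lower (14.3% and 0.855% of all TE genes tested), so 100% of the calls were then higher in tsk-4 in place of 12 of 17. A test on whole reads recovered from the TPM (limma-voom) called 20 higher and 3 lower of 69 members, against 29.9% and 3.19% of all TE genes in it.

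All 12 members called higher lay between positions 13677206 and 18162686 of chromosome 1, and 11 lay in the central block, where 44 of the 88 tested and 508 of the 682 listed members lay. Of the 20 called higher in the test on whole reads, 14 were central. None of the 12 overlapped another annotated gene, as 17 of the 682 members did. Together the 12 held 407 reads in tsk-4 and 6 in Col, and 11 of the 12 had 0 reads in every Col library. These sums are a description only, since the 12 were called higher from these same libraries. The members without Col reads passed the filter through tsk-4 alone. All 12 were also called when rescaled to the gene table. All 10 that had enough reads for the test on whole reads were called there too.

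Of the 12, 6 were called under each of the 14 other settings tried. AT1G42050 (15707077 to 15710285, minus strand) led them, with 37, 28 and 25 reads in tsk-4 and 0 in each Col library. Its level was 962 ± 182 TPM in tsk-4 (SD, n = 3), and its log2 change 3.40 ± 0.25 (SE; limma adjusted p = 0.00034). In reads per 1000000 reads of the gene table, against a floor of 3 reads summed over the 3 Col libraries, AT1G42050 was at least 29.3-fold higher in tsk-4. Lower bounds of the other members are on the same read scale, not on TPM. All these bounds take the tsk-4 reads as counted, without an allowance for their counting error. No stretch of AT1G42050 was found elsewhere at 98% identity, but 83.9% of its span matched other places at 80% or more. AT1G36330 (13677206 to 13680593, minus strand) had 17, 11 and 20 reads in tsk-4 and 0 in Col, at least 15.6-fold higher in reads, with 483 ± 120 TPM in tsk-4 (log2 change 2.52 ± 0.28, adjusted p = 0.0017). AT1G36360 (13689534 to 13695235, plus strand) is the next TE gene along the chromosome, 8940 bases further on and on the opposite strand. It had 20, 9 and 20 reads in tsk-4 and 0 in Col, at least 15.9-fold higher (log2 change 1.93 ± 0.32, adjusted p = 0.0084). Neither AT1G36330 nor AT1G36360 held a stretch found elsewhere at 98% identity.

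AT1G44060 (16743177 to 16745699, minus strand) and AT1G39110 (14591055 to 14593550, minus strand) were even across the mutant libraries. AT1G44060 had 9, 7 and 11 reads in tsk-4 and 0 in Col, at least 8.78-fold higher (log2 change 2.21 ± 0.27, adjusted p = 0.0023). AT1G39110 had 8, 7 and 7 reads in tsk-4 and 0 in Col, at least 7.16-fold higher in reads, with 303 ± 18.7 TPM in tsk-4 (log2 change 2.01 ± 0.26, adjusted p = 0.0028). AT1G49090 (18161320 to 18162686, plus strand) was the 1 member of the 12 outside the central block. It had 11, 5 and 4 reads in tsk-4 and 0 in Col, at least 6.51-fold higher (log2 change 2.49 ± 0.36, adjusted p = 0.0041). Its whole span was found elsewhere in the genome at 98% identity or more, with 8 copies over at least 80% of the span, so its values are uncertain.

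AT1G36630 (13840145 to 13847625, minus strand) was the 1 called member with reads in Col. It had 17, 21 and 30 reads in tsk-4, against 1, 4 and 1 in Col. Its level was 312 ± 88.9 TPM in tsk-4 and 31.1 ± 25.9 TPM in Col (SD, n = 3 each), with log2 change 1.65 ± 0.30 (limma adjusted p = 0.013). The lowest tsk-4 library lay well above the highest Col library. Without Col replicate 1 its adjusted p was 0.056.

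AT1G43930 (16661000 to 16664004, minus strand) rested most on 1 library, with 30, 8 and 6 reads in tsk-4 and 0 in Col. It was at least 14.3-fold higher in reads, with 495 ± 434 TPM in tsk-4 (log2 change 2.34 ± 0.49, limma adjusted p = 0.020). Adjusted p-values of 0.054 without tsk-4 replicate 2 and of 0.063, 0.063 and 0.054 without Col replicates 1, 2 and 3 ended that call. A pseudocount of 500 TPM ended it too (adjusted p = 0.089). AT1G40310 (15415948 to 15417870, plus strand) had 2, 8 and 4 reads in tsk-4 and 0 in Col, at least 4.55-fold higher (log2 change 1.71 ± 0.42, adjusted p = 0.031). It was the last member inside the threshold on the higher side, and leaving out tsk-4 replicate 3 or any Col library raised its adjusted p to between 0.074 and 0.10. The call was also lost with a pseudocount of 500 TPM (0.095), no filter (0.057) or the replicate number as a block (0.063). AT1G25430, the first outside the threshold, had 11, 11 and 10 reads in tsk-4 and 4, 1 and 2 in Col (log2 change 1.03 ± 0.29, adjusted p = 0.055).

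**Figure D3:**
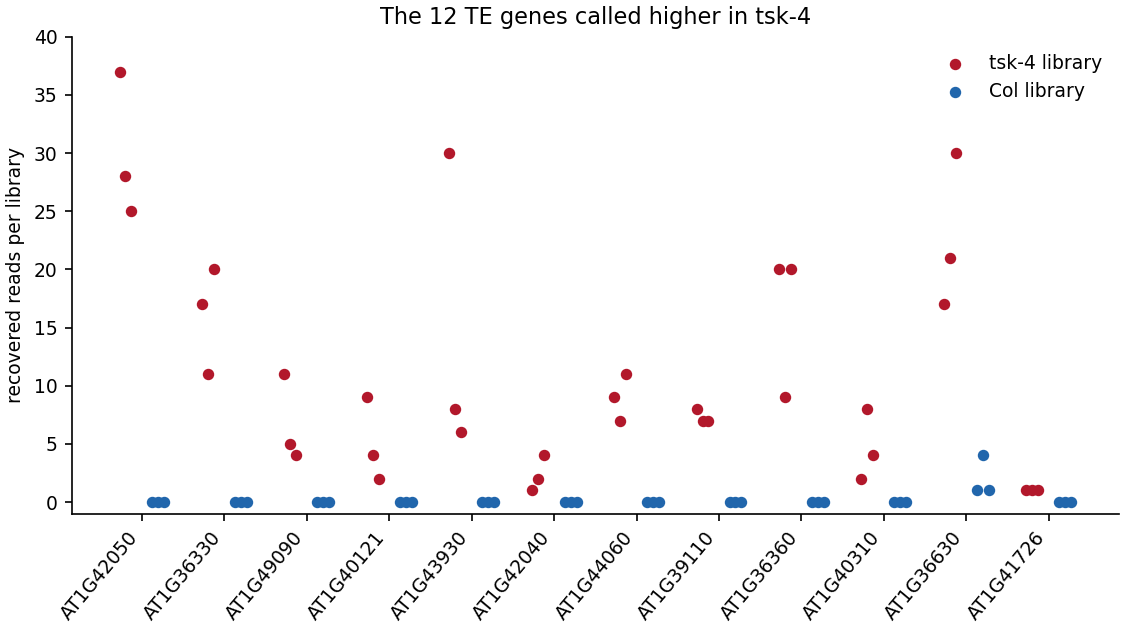
Recovered reads per library of the 12 TE genes of chromosome 1 called higher in tsk-4 (red points, tsk-4; blue points, Col). The 3 tsk-4 libraries held 1 to 37 reads per TE gene, and the Col libraries held none except for AT1G36630 with 1, 4 and 1 reads.

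The remaining 3 called members were short and related in sequence. AT1G40121 (15190972 to 15191991, plus strand) and AT1G41726 (15503360 to 15503986, plus strand) were 88.9% identical over 614 aligned bases, and AT1G40121 and AT1G42040 (15705082 to 15705651, minus strand) 86.1% identical over 554. AT1G41726 and AT1G42040 were 82.1% identical over 448 aligned bases. One aligned stretch of 120 bases is shown to let the shared sequence be seen, from chr1:15191668-15191787 (plus strand), chr1:15503660-15503779 (plus strand) and chr1:15705155-15705274 (minus strand). It is taken from TAIR10.1 of RefSeq and read 5′ to 3′ along each gene, with capitals at the 12 positions that differ among the 3.
AT1G40121: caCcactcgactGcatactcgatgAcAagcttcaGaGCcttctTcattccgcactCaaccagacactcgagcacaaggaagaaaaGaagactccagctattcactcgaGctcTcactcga
AT1G41726: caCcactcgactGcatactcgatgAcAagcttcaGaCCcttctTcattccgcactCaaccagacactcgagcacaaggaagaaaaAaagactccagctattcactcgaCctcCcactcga
AT1G42040: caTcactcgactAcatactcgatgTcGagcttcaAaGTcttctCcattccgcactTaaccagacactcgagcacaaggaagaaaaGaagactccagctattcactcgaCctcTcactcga
The other 108 positions were identical. AT1G40121 had 9, 4 and 2 reads in tsk-4 and 0 in Col, at least 4.88-fold higher (log2 change 2.42 ± 0.45, limma adjusted p = 0.013). AT1G42040 had 1, 2 and 4 reads in tsk-4 and 0 in Col, at least 2.28-fold higher (log2 change 2.25 ± 0.42, adjusted p = 0.013). AT1G41726 had 1 read in each tsk-4 library and 0 in Col (log2 change 1.40 ± 0.29, adjusted p = 0.020), which is at the floor and gives no fold. AT1G41726 and AT1G42040 held the fewest reads of the 12. Of the span of AT1G40121, 56.0% was found elsewhere at 98% identity or more. Without tsk-4 replicate 2 the adjusted p was 0.052 for both AT1G40121 and AT1G42040, and without Col replicates 1, 2 and 3 it was 0.086, 0.076 and 0.067 for AT1G41726. A pseudocount of 500 TPM gave 0.055 for AT1G40121 and 0.054 for AT1G42040. The replicate number as a block gave 0.088 for AT1G41726. AT1G42040 lies 1425 bases before AT1G42050 with no TE gene listed between them, and both are on the minus strand.

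The 12 called members shared no strand and little in base composition. Of the 12, 5 lay on the plus strand and 7 on the minus strand. Their GC content ran from 39.6% to 50.5% with a median of 43.5%, and their median ratio of observed to expected CG pairs was 0.658, against 0.634 over all members. Their median span was 2510 bases. A stretch copied at 98% identity was found in 2 of the 12, and one copied at 80% identity in 10 of the 12, close to the 84.5% of all members. The nearest gene of the gene table was tested for 2 of the 12, and it was called higher in both cases, where 14.9% of the 19574 genes tested were. Beside AT1G36360, SHM7 (AT1G36370), a serine hydroxymethyltransferase gene, lies 807 bases away on the opposite strand and averaged 121 TPM in tsk-4 and 55.5 TPM in Col (log2 change 1.13). Beside AT1G43930, AT1G43910 lies 3314 bases away on the same strand and averaged 18.7 TPM in tsk-4 and 7.95 TPM in Col (log2 change 1.18). Whether the reads of such neighbours extend into the TE genes was not tested.

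The 38 members with reads in all 6 libraries held 10 to 5259 reads each. They made up 93.4% of the reads on members in tsk-4 and 98.4% in Col. Of the 38, 36 were tested, with 1 called higher (AT1G36630) and 5 lower, and a median log2 change of -0.19. Values above 0 were found for 11 of the 36. When rescaled to the gene table the median was -0.10. All 5 members called lower then stayed below 0 but none was called, while the test on whole reads called 3 of the 5. TPM within the TE gene table sum to a fixed total, and the table held 21413 to 24565 reads in tsk-4 and 20505 to 21628 in Col.

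Among the 5 members called lower, AT1G20390 and AT1G15300 had the largest changes. AT1G20390 (7065494 to 7071561, plus strand) had 351, 278 and 419 reads in tsk-4, against 513, 519 and 414 in Col, so that the highest tsk-4 library had more reads than the lowest Col library. In TPM it averaged 5908 ± 977 in tsk-4 and 9411 ± 1176 in Col (SD, n = 3 each), without overlap (log2 change -0.67 ± 0.16, limma adjusted p = 0.029). The test on whole reads also called it lower (adjusted p = 0.0087), and the rescaled test did not (log2 change -0.57, adjusted p = 0.073). AT1G15300, named CYTOSLEEPER in the reference, had 54, 44 and 44 reads in tsk-4, against 72, 72 and 57 in Col (5265726 to 5268602, minus strand). Its log2 change was -0.67 ± 0.18 (adjusted p = 0.046), the last inside the threshold on the lower side. It was -0.58 when rescaled (adjusted p = 0.083), and the test on whole reads called it lower (adjusted p = 0.046).

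The other 3 were the most abundant members of all, and their changes were small. AT1G80020 (30100473 to 30103899, minus strand) had the most reads, 916, 754 and 881 in tsk-4 and 872, 935 and 901 in Col. It averaged 25525 ± 1301 TPM in tsk-4 and 31190 ± 45.0 TPM in Col (log2 change -0.29 ± 0.06, limma adjusted p = 0.017). AT1G35115 (12842158 to 12845455, plus strand) had 859, 744 and 844 reads in tsk-4 and 874, 881 and 810 in Col (log2 change -0.27 ± 0.06, adjusted p = 0.027). AT1G03420 (846664 to 847739, plus strand), annotated as Sadhu4-2, had the highest level, 38441 ± 1207 TPM in tsk-4 and 43965 ± 1140 TPM in Col (log2 change -0.19 ± 0.05, adjusted p = 0.031). In reads it showed almost no gap, with 412, 391 and 400 in tsk-4 and 397, 410 and 391 in Col. It overlaps AT1G03410 (2A6) and AT1G04183, 1 of them on its own strand, so some of its reads may belong to these. Rescaled to the gene table, the log2 change was -0.19 for AT1G80020, -0.17 for AT1G35115 and -0.10 for AT1G03420 (limma adjusted p = 0.12, 0.19 and 0.25). In the test on whole reads AT1G80020 was called lower (adjusted p = 0.045), and AT1G35115 (0.094) and AT1G03420 (0.43) were not. Leaving out Col replicate 1 left 0 of the 5 lower calls, and the counts without each of the other libraries were 1 to 3.

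**Figure D4:**
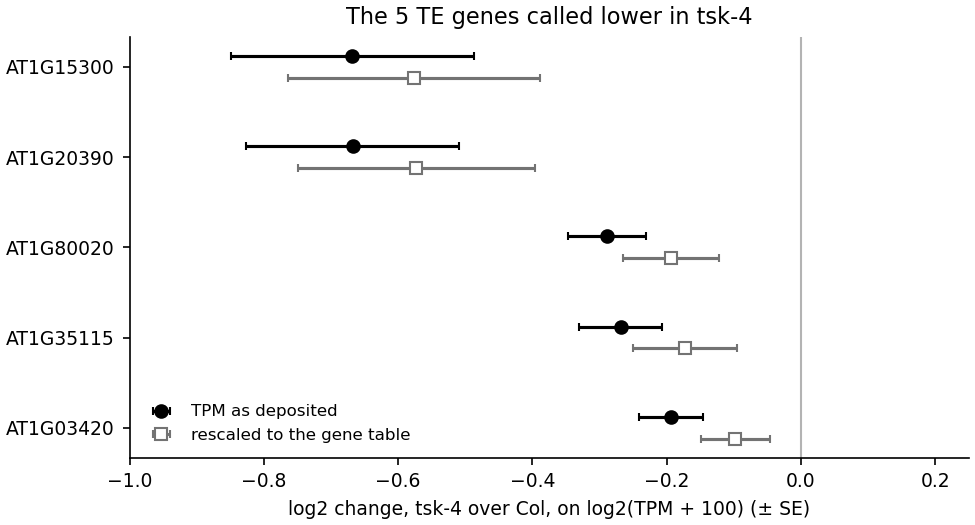
Log2 change (tsk-4 over Col) with its standard error for the 5 TE genes of chromosome 1 called lower in tsk-4, from TPM as deposited and after rescaling to the gene table. All 5 stayed below 0 under both scalings and moved nearer to 0 when rescaled, where none was called.

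Other members with a symbol or a note showed no called difference. SADHU1-2 (AT1G30835) had 491, 389 and 430 reads in tsk-4 and 439, 449 and 383 in Col, with 22778 ± 1751 TPM in tsk-4 and 25452 ± 2176 TPM in Col (limma adjusted p = 0.27). SADHU2-1 (AT1G35112) had 37, 41 and 41 reads in tsk-4 and 36, 41 and 39 in Col (adjusted p = 0.45). SADHU9-1 (AT1G44935) had no read in any library, and SADHU8-1 (AT1G50735) had 1 read, in tsk-4 replicate 1. The Sadhu elements of chromosome 1 thus ranged from the most abundant member to 1 with no read. AT1G35612, noted as a pseudogene of an Ulp1 protease, a type of protease that removes SUMO and that several plant DNA transposons carry, had 140, 83 and 124 reads in tsk-4 and 155, 192 and 127 in Col. It was the first outside the threshold on the lower side (log2 change -0.66 ± 0.19, adjusted p = 0.060). AT1G43675, noted for its similarity to non-LTR retroelements, had 22, 28 and 42 reads in tsk-4 and 28, 39 and 38 in Col (adjusted p = 0.27). AT1G35186 had 0 reads in tsk-4 and 0, 3 and 1 in Col (adjusted p = 0.28). AT1G02228 and AT1G41900, noted as pseudogenes of a NAM protein and of a myosin heavy chain-related protein, had 0 reads in all libraries.

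The summed reads on the 682 members hardly differed between the genotypes. They came to 5147, 4524 and 5166 reads in tsk-4, against 4859, 5022 and 4771 in Col. Per 1000000 reads of the gene table that is 335.1 ± 18.5 in tsk-4 and 339.6 ± 13.1 in Col (SD, n = 3 each; two-sided exact permutation p = 0.8). The sum is set by a few members, since the 5 with the most reads held 57.6 ± 1.18% of it in tsk-4 and 62.7 ± 1.67% in Col. Without these 5 it was 141.8 ± 5.39 per 1000000 in tsk-4 and 126.6 ± 3.64 in Col, with no overlap (p = 0.1, the smallest possible in the exact permutation test). The 38 members read in all 6 libraries held 312.9 ± 18.8 per 1000000 in tsk-4 and 334.1 ± 12.3 in Col. The other 644 held 22.1 ± 0.809 in tsk-4 and 5.49 ± 0.801 in Col, a description only, since members read in 1 genotype alone fall into this set by construction. TE genes of the other chromosomes held 1253 ± 71.5 per 1000000 in tsk-4 and 1114 ± 25.2 in Col (exact permutation p = 0.1), so the share of chromosome 1 in the reads of the table was 21.1 ± 0.0578% in tsk-4 and 23.4 ± 0.292% in Col. Central members held 125.6 ± 6.56 per 1000000 in tsk-4 and 119.3 ± 8.35 in Col (p = 0.4), and the arms 209.4 ± 12.3 in tsk-4 and 220.3 ± 7.62 in Col (p = 0.5, both by the exact permutation test). In such bulk RNA, more cells that express a TE gene and more RNA per cell cannot be told apart.

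The table of annotated TE fragments gave a second view of the chromosome, although fragments and TE genes can share the same reads. Of 7135 fragments with identifiers beginning AT1TE, 754, 748 and 745 had a value above 0 in tsk-4, against 669, 632 and 641 in Col. These are 10.5 ± 0.0642% in tsk-4 and 9.07 ± 0.270% in Col (SD, n = 3 each; two-sided exact permutation p = 0.1, the smallest possible), next to 10.3% in tsk-4 and 8.80% in Col on chromosomes 2 to 5. Of the 7135, values above 0 in every tsk-4 library and no Col library were found for 29 fragments, and the opposite for 3. How many fragments of the other chromosomes showed either pattern was not counted, so whether these numbers are particular to chromosome 1 was not tested. As with the TE genes, the gap was not even along the identifiers. From AT1TE45000 to AT1TE49999, 32, 31 and 34 of 740 fragments had values in tsk-4, against 9, 8 and 9 in Col. In the block before it the numbers were 59, 62 and 63 of 830 in tsk-4 and 37, 39 and 41 in Col, and in the block after it 51, 52 and 57 of 929 in tsk-4 and 35, 34 and 36 in Col. From AT1TE60000 to AT1TE64999 the genotypes overlapped, with 35, 38 and 29 of 408 in tsk-4 and 40, 33 and 30 in Col. Nearer the start of the chromosome some blocks overlapped and others did not. From AT1TE25000 to AT1TE29999, 21, 29 and 20 of 248 had values in tsk-4, against 16, 17 and 16 in Col. From AT1TE15000 to AT1TE19999 the numbers were 21, 24 and 19 of 128 in tsk-4 and 21, 17 and 19 in Col.

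**Figure D5:**
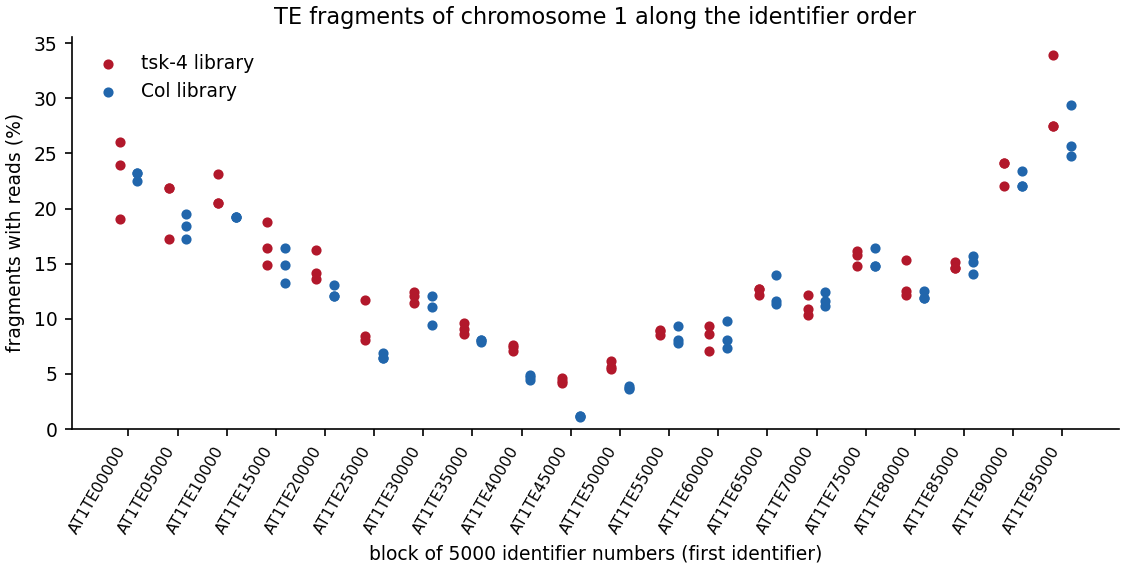
Percent of annotated TE fragments of chromosome 1 with a value above 0 in each library, by block of 5000 identifier numbers along the chromosome (red, tsk-4; blue, Col). In AT1TE45000 to AT1TE49999, the block with the lowest percentages, tsk-4 averaged 4.37% and Col 1.17%, while the points overlapped in most outer blocks.

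Among 24 genes that act in TE silencing, 23 were tested, of which 2 were higher and 2 lower in tsk-4. Over all 19574 genes tested 14.9% were called higher and 4.96% lower. The median log2 change was 0.16 over the list and 0.08 over all genes. ROS1, which removes DNA methylation and is itself known to be expressed less when methylation is lost, averaged 12.1 ± 2.49 TPM in tsk-4 and 20.2 ± 1.34 TPM in Col (SD, n = 3 each; log2 change -0.74 ± 0.14, limma adjusted p = 0.0074). CMT2, a methyltransferase for CHH and CHG sites in long TEs, averaged 14.7 ± 0.995 TPM in tsk-4 and 20.9 ± 0.822 TPM in Col (log2 change -0.49 ± 0.09, adjusted p = 0.0054). DCL3, which cuts precursors of the small RNAs that direct methylation, averaged 6.01 ± 0.870 TPM in tsk-4 and 3.67 ± 0.257 TPM in Col (log2 change 0.64 ± 0.15, adjusted p = 0.018). HTA7, which encodes an H2A.W histone, averaged 110.4 ± 5.996 TPM in tsk-4 and 86.2 ± 9.99 TPM in Col (log2 change 0.36 ± 0.09, adjusted p = 0.021), and was not called after median-ratio scaling (adjusted p = 0.063). DCL3 was not called without tsk-4 replicate 1 (adjusted p = 0.072), Col replicate 1 (0.052) or Col replicate 2 (0.063). HTA7 was not called without tsk-4 replicate 1 (0.074), tsk-4 replicate 3 (0.069), Col replicate 1 (0.053) or Col replicate 2 (0.060). The part of these genes in the TE gene values was not tested.

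The 3 markers of green tissue and 2 of 3 markers of root differed between the genotypes. Summed over 3 green tissue markers, levels were 33781 to 34129 TPM in tsk-4 and 44174 to 45158 TPM in Col, with 3 of 3 called lower. Over 3 root markers they were 112 to 129 TPM in tsk-4 and 94.6 to 100.04 TPM in Col, with 2 of 3 called higher. Of all 19574 genes tested, 4.96% were called lower and 14.9% higher. PRP3 held most of the root sum, with 79.5 ± 8.45 TPM in tsk-4 and 58.4 ± 0.194 TPM in Col. The root marker not called, PER64, averaged 25.9 ± 3.99 TPM in tsk-4 and 27.5 ± 1.33 TPM in Col (SD, n = 3 each). Pollen is a material in which TEs are known to be expressed. Its 5 markers summed to 0.661 to 1.38 TPM in tsk-4 and 0.399 to 1.08 TPM in Col, with MGH3, GEX2 and VGD1 at 0 in every library. Over 4 seed markers the sums were 40.1 to 86.2 TPM in tsk-4 and 38.001 to 113.0 TPM in Col, with 0 called. The part of green and root tissue in the TE gene values was not tested.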

How the data were processed

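Total RNA of 7-day seedlings was sequenced in 6 libraries, grouped by the genotype in their titles. The authors deposited TPM for genes, TE genes and TE fragments, and each library summed to 1000000 in each table, so tests stayed within a table. Per the submitters' processing notes the build was TAIR10 and the tools were DESeq2 1.26.0, HTSeq 0.11.2, HISAT2 2.1.10 and fastp 0.20.1. Whether counting used strand, and how it treated multi-mapped reads, is not given in the sources used here.

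Identifiers of all 682 members matched TAIR10.1. TPM times the annotated span gave whole reads, within 0.02 reads, for at least 99.76% of values above 0 in the TE gene table. These recovered reads came to 20505 to 24565 per library, and to 13726929 to 14946295 in the gene table. For TE genes, 1 read in 1 kb was worth 99.6 to 123 TPM, which set the pseudocount of 100 TPM and the filter of 50 TPM. Floors cover counting error only.

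The whole TE gene table was fitted with limma 3.58.1 in R 4.3.3, with Benjamini-Hochberg adjustment. Genes were fitted on log2(TPM + 0.5) with at least 1 TPM in 3 of 6 libraries. The test on recovered reads was limma-voom with at least 10 reads over the 6 libraries, and it called 103 TE genes higher and 11 lower. The fit was tested on simulated data in which no change was put into the sparsest or the most abundant TE genes. Recovery of changes in those was therefore not tested. Copies were sought with BLAST 2.17.0 and stretches aligned with MAFFT 7.526. Remaining steps ran in Python 3.11.15 with SciPy 1.17.1, pandas 2.3.3, NumPy 2.4.6 and matplotlib 3.10.9.

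Members are named if they were among the 12 higher calls or up to 6 lower calls with the largest change (5 were made), the 5 with the highest mean TPM, the 5 with the most reads, or the 2 on either side of the threshold, or if they carry a symbol or note. The members, lists and settings were chosen with earlier results of these data known. Alternatives changed the pseudocount, filter, scaling, test, replicate block, block size, detection threshold and depth, and left out each library in turn.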

Additional observations from a re-analysis of the deposited data

How the results depend on the processing

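The number of detected members, their central share and the number of detected fragments kept their direction under every alternative run for them. Without each library in turn the differences, tsk-4 minus Col, were 49.7 to 54.7 members, 12.3 to 14.8 percentage points and 94.0 to 112.5 fragments. The 12 higher calls became 22 with a filter of 1 TPM in 3 of 6 libraries, 23 with a pseudocount of 0.5 TPM as well, 20 in limma-voom, and 8 to 15 without each library. The filter of 3 libraries can be met by tsk-4 alone, as by the 21 members read in every tsk-4 library and no Col library. The opposite pattern was found for 0 members. The 5 lower calls became 3 with a pseudocount of 500 TPM, 1 with no filter, 0 when rescaled to the gene table, 3 in limma-voom, and 0 to 3 without each library. Over all TE genes, the 65 higher calls became 37 with a pseudocount of 500 TPM, 126 with the 1 TPM filter, 128 with 0.5 TPM as well, 103 in limma-voom, and 34 to 80 without each library. The 13 lower calls became 4 with no filter, 4 when rescaled, and 4 to 10 without each library. Silencing genes called higher numbered 1 after median-ratio scaling and 0 to 3 without each library, and those called lower stayed at 2 without each library. The difference in summed reads per 1000000, -4.52 as tsk-4 minus Col, was 15.2 without the 5 members with the most reads, and -10.5 to 6.13 without each library (6.13 without tsk-4 replicate 2 and 2.68 without Col replicate 1). Of 362 values of single genes under alternatives, 288 kept the outcome of the main fit, which includes genes called in neither fit. A call was lost in 69 and gained in 5, and 0 changed sign. The cause of these shifts was not tested. Deviations of same-numbered libraries from their group means had correlations of -0.04, 0.02 and 0.02 in the TE gene table. In the gene table these were 0.12, -0.09 and -0.11. With 3 libraries per genotype, such values cannot show whether same-numbered libraries shared a sowing or a batch. With the replicate number as a block, 11 members were higher and 0 lower, and 47 and 4 of all TE genes. Depth limits what can be seen, since most members held no read and 69 a single one.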
